A study of Mus musculus with 6 samples.

Results

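The mitogen-activated protein (MAP) kinases and the dual-specificity phosphatases (DUSPs) were examined in mouse tibialis anterior muscle, at the front of the lower leg, 48 h after exercise. Members were all probe sets that the platform annotation assigned to a single gene with a symbol of the Mapk, Map2k, Map3k, Map4k or Dusp series. The rule gave 61 probe sets of 40 genes, out of 10833 single-gene probe sets of 8251 genes on the Affymetrix MGU74Av2 array. It used names only and no measured value, but it was chosen with earlier results of these data known.

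Each of 3 groups was 1 pool of total RNA from 4 animals, divided between 2 arrays, called A and B. The eccentric group had performed 50 contractions during which the active muscle was lengthened, and the isometric group 50 contractions at constant length, both in a non-invasive model. The control pool came from contralateral legs, which contracted only as often as a measurement of isometric torque required, so control muscle was not fully at rest. The labels give no strain, age or sex, and do not say which exercised animals the control legs belonged to. A group is therefore 1 biological sample, and its 2 arrays differ in labelling and hybridisation but not in animals. No significance test of the contraction type was possible, and each value is a signal intensity given for array A and then for array B, or as mean ± SD over n = 2 arrays of 1 pool.

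MAP kinase cascades pass a signal through successive kinases. A MAP kinase kinase kinase (MAP3K), in some branches activated by a MAP4K, phosphorylates a MAP2K, which phosphorylates a MAPK of the ERK, JNK, p38 or ERK5 branch. DUSPs of the MAP kinase phosphatase class remove those phosphates, and several are themselves induced by the kinases they restrain. In skeletal muscle these cascades respond within minutes to contraction and stretch, mainly through phosphorylation, which an expression array does not measure.

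The arrays were alike in overall signal, with medians of 186.9 to 197.2 and 59.2% to 61.3% of probe sets above a floor of 120.8, the 40th percentile of all values, to which lower signals were set. Muscle-fibre markers were bright, with a summed signal of 316948 to 438168 over 21 probe sets. Control A and isometric B stood apart in that sum, at 438168 and 436537 against 316948 to 357678 on the other 4 arrays. Macrophage and monocyte markers differed between pools. In the eccentric against the control pool 14 of 22 measured probe sets were at least 2-fold higher, where 6.12% of all differed 2-fold in either direction. In the isometric against the control pool it was 4 of 20, against 1.27% of all. Adgre1, among the 14, had control A below the floor, at 65, and entered through the eccentric pool only. A probe set of C1qb (162276_i_at) went the other way, at -0.62 in the eccentric pool. The summed signal of the macrophage and monocyte markers over 29 probe sets of 20 genes was 14833 to 15910 in the control, 39565 to 39728 in the eccentric and 22604 to 25403 in the isometric pool. None of the 29 was listed at 0, although 4 lay below the floor on all 6 arrays. For beta-actin, the log2 excess of the 3' over the 5' probe set, a measure of RNA integrity, was 0.01 and 0.07 in the control, 0.43 and 0.45 in the eccentric and 0.14 and 0.27 in the isometric pool. For Gapdh it was -0.05 and -0.07 in the control, 0.12 and 0.13 in the eccentric and -0.07 and 0.27 in the isometric pool. What part these differences had in the results for MAP kinases and DUSPs was not tested.

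Of the 61 member probe sets, 42 probe sets of 34 genes were counted as measured, meaning that in 1 or more pools both arrays exceeded the floor, and 19 were not. Of the 42, 38 lay above the floor on all 6 arrays, so 4 entered through some arrays only, those of Dusp8 (161171_at), Map3k11, Mapk10 and Map3k3 (94947_g_at). The 6 genes without a measured probe set were Dusp9, Map3k2, Map3k6, Map3k12, Mapk7 and Mapk13. A probe set with a letter before the ending of its name was built by relaxed rules or recognises related transcripts, and 17 of the 61 carried one, 9 of the measured and 8 of the dim ones.

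No member differed 2-fold between any 2 of the pools. The rule asked for a mean log2 difference of at least 1 and the same sign whichever of the 4 pairs of arrays was compared. Between the eccentric and the control pool 0 of 42 measured members passed, where 6.12% of 6744 measured single-gene probe sets did. Between the isometric and the control pool it was 0 of 42 against 1.27% of 6609, and between the exercised pools 0 of 41 against 2.36% of 6653. The largest differences lay just short of the rule, at 0.99 for Map3k1 and -0.95 for Dusp8 in the eccentric against the control pool. The count of 0 rests on small margins: leaving out any 1 array brought 2 or 3 members past 2-fold in the eccentric comparison, namely Dusp8 with Mapkapk2 (without eccentric A), Map3k1 with Map4k4 (eccentric B), Dusp8 with Map3k1 (control A), and Mapkapk2 with both Map4k4 probe sets (control B). In the isometric comparison Mapkapk2 passed without isometric A, Mapk8ip1 without isometric B and both Map4k4 and Mapk8ip1 without control B. Leaving out an array loosens the rule for every probe set, since fewer pairs of arrays must share a sign. The shares of all probe sets past 2-fold in these runs are not set beside the counts here, so nothing particular to the members is read from them.

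A 1.5-fold rule, otherwise the same, was passed by 8 members in the eccentric against the control pool, a share of 19% where 19.5% of all measured probe sets passed. The 5 higher probe sets belonged to Map3k1, Map4k4 (both), Mapk8ip1 and Dusp6, against 11.9% of all probe sets higher. The 3 lower ones belonged to Mapk9, Mapkapk2 and Dusp8, against 7.56% of all. Median scaling changed this split to 4 and 4, and quantile normalization to 3 and 4. In the isometric against the control pool 4 of 42 passed, where 6.58% of all did, with Dusp1, Map4k4 and Mapk8ip1 higher (3, against 3.83% of all) and Mapk9 lower (1, against 2.75% of all). Between the exercised pools Map3k1 alone passed, 1 of 41 where 12.4% of all did. It was higher in the eccentric pool, as 7.55% of all were, and 0 members were lower, against 4.87% of all. With 1 array left out in turn, 5 of the 8 eccentric, 0 of the 4 isometric and 1 of 1 between the exercised pools passed every time.

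**Figure D1:**
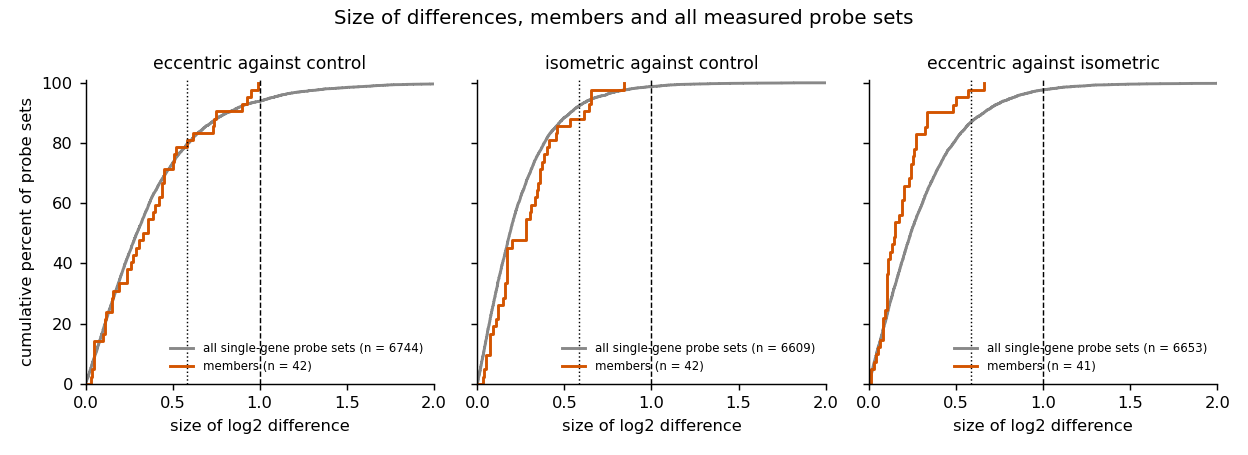
Cumulative percent of probe sets (vertical axis) against the size of the log2 difference between 2 pools (horizontal axis), for measured members (orange) and all measured single-gene probe sets (grey), with 1 panel per comparison. The dotted line marks 1.5-fold and the dashed line 2-fold, and the orange line reaches 100% before the dashed line in all 3 panels.

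The members' median log2 difference was -0.13 in the eccentric against the control pool, with 16 above and 26 below 0, beside -0.02 over all measured probe sets, of which 47.8% lay above 0. It was -0.09 in the isometric against the control pool, with 14 above and 28 below 0, beside -0.01 and 48.0% above 0 over all. The 4 members measured on some arrays only are among these counts, and the filter bears on their direction. Between the exercised pools it was -0.05 beside 0.02. The 2 arrays of a pool differed by a median log2 size of 0.22, 0.19 and 0.17 over members above the floor in the control, eccentric and isometric pools. The median size of the difference between pools was 0.34 for eccentric against control, 0.28 for isometric against control and 0.15 between the exercised pools, beside 0.30, 0.19 and 0.24 over all probe sets. These are differences between means of 2 arrays, which vary less than single arrays. They are therefore not like the spread between the arrays of a pool and are not ranked against it. The arrays of the eccentric and control pools did not overlap for 27 of 42 members, 64.3%, where 61.4% of all probe sets did not overlap. Of the 27, 10 were higher and 17 lower in the eccentric pool, beside 30.4% and 31% of all. For the isometric and control pools it was 17 of 42 against 37.8% of all, with 8 higher and 9 lower beside 18.6% and 19.2%. For the exercised pools it was 16 of 41 against 52.5%, with 7 higher and 9 lower in the eccentric pool beside 28.2% and 24.3%.

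**Figure D2:**
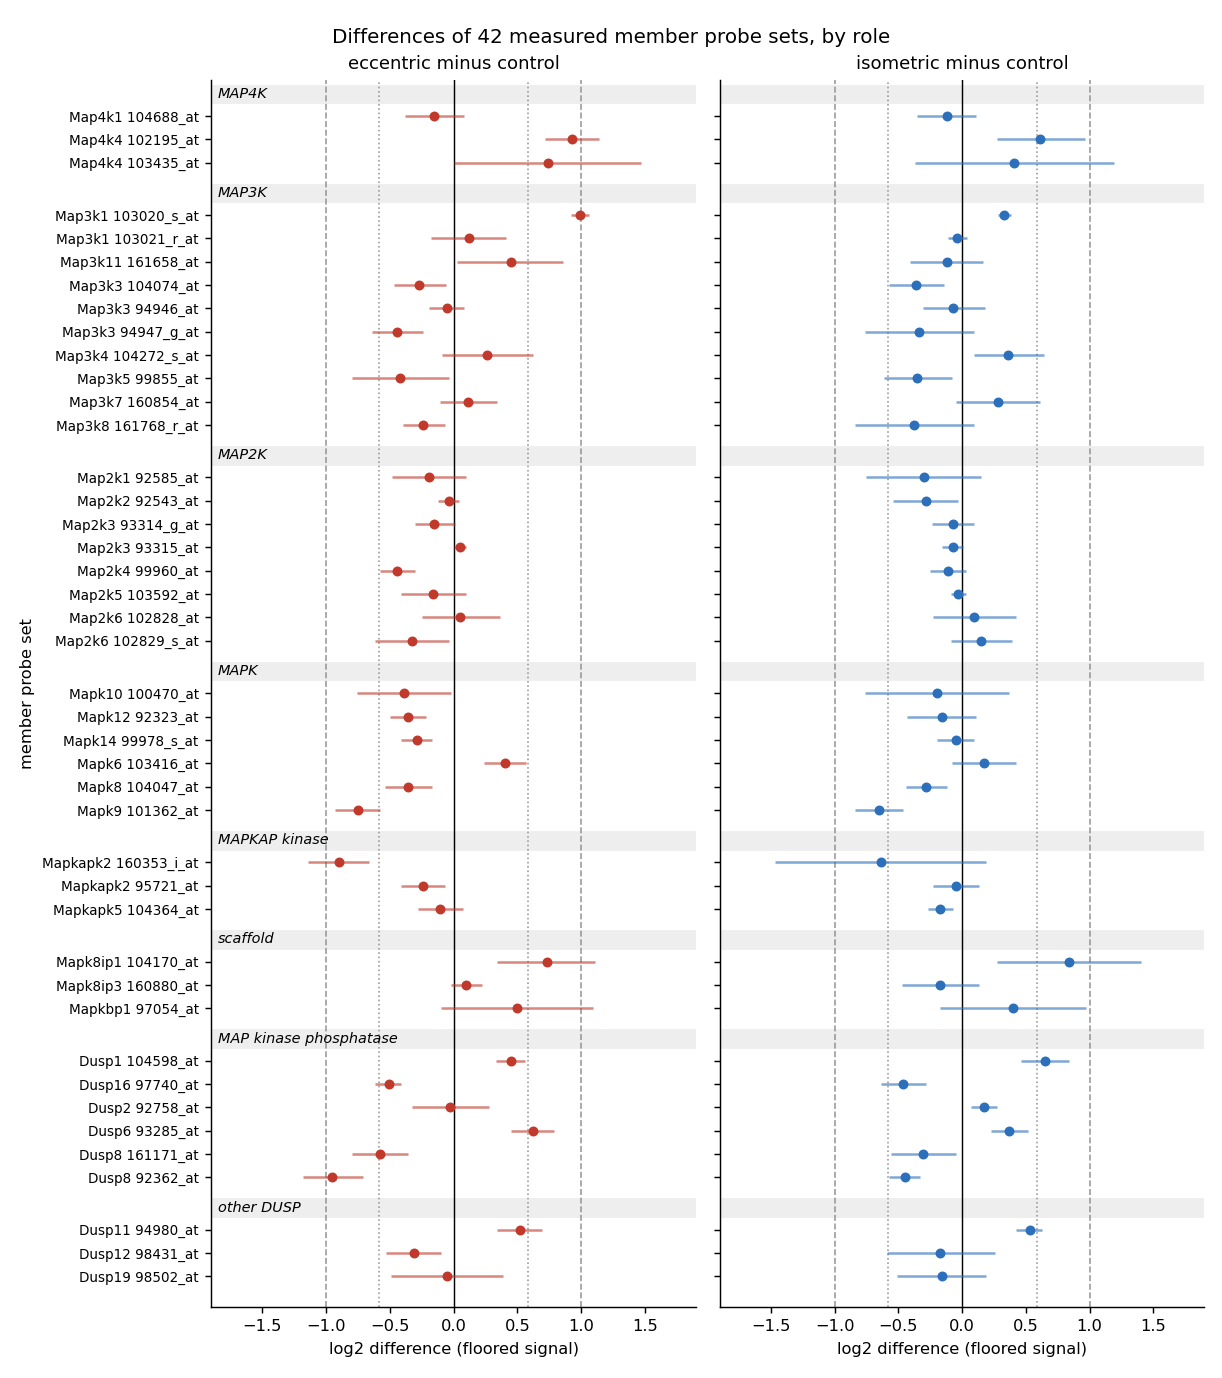
Log2 difference of floored signal (horizontal axis) for the 42 measured member probe sets grouped by role (rows), eccentric minus control in red and isometric minus control in blue. Points are differences of pool means, bars span the 4 pairings of arrays, and dotted and dashed lines mark 1.5-fold and 2-fold. No point reaches a dashed line, with Map3k1 at 0.99 and Dusp8 at -0.95 closest in the eccentric comparison.

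At the top of the cascade, Map4k4, a kinase that activates the JNK branch, was higher in the eccentric pool on both of its measured probe sets. On 102195_at its signal was 148 and 166 in the control, 327 and 274 in the eccentric and 200.1 and 288 in the isometric pool. Both exercised pools lay above both control arrays, with log2 differences of 0.93 (1.91-fold) and 0.61 (1.53-fold). In the eccentric comparison the difference stayed between 0.80 and 1.06 with any 1 array left out, while in the isometric comparison it was 0.35 without isometric B. On 103435_at the signal was 154 and 374 in the control, 429 and 374 in the eccentric and 352 and 289.7 in the isometric pool. Control B and eccentric B were thus equal there, and the log2 difference of 0.74 was 0.10 without control A. In the isometric comparison that probe set had 0.41, and -0.23 without control A. The remaining probe set of Map4k4 lay below the floor on all 6 arrays. Map4k1, a MAP4K of blood cells, had 404 and 329 in the control, 347.5 and 311 in the eccentric and 316 and 355 in the isometric pool, which overlapped in every comparison. The summed signal of 6 general leukocyte genes was 4304 to 4400, 10831 to 11237 and 5505 to 6159 in these pools. That of 9 lymphocyte genes was 1905 and 1169, 1125 and 1236, and 862 and 881, with 6 of 11 probe sets below the floor on all 6 arrays. How Map4k1 relates to either sum was not tested.

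Among the MAP3Ks, Map3k1 had the largest difference of any member. Map3k1 encodes MEKK1, which acts upstream of JNK and other branches. On 103020_s_at its signal was 295.5 and 283 in the control, 589 and 559.9 in the eccentric and 368 and 359 in the isometric pool. The 3 pools were separate, with the eccentric pool 1.98-fold above the control (574 ± 20.4 against 289 ± 8.69) and 1.58-fold above the isometric pool. With 1 array left out these log2 differences ranged from 0.95 to 1.03 and from 0.62 to 0.70. Another probe set, 103021_r_at, lay close to the floor at 141 and 135 in the control and 124.5 and 179.6 in the eccentric pool, overlapped between these pools and had a log2 difference of 0.12. The third, 103022_at, was below the floor on all 6 arrays. The name 103020_s_at marks probes that related transcripts can share, so the difference rests on 1 probe set.

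The other measured MAP3K probe sets differed by less than 1.5-fold in every comparison, with log2 differences in the eccentric against the control pool of -0.44 to 0.45. Map3k5 (ASK1, activated by oxidative stress) had 347 and 247 in the control, 199.5 and 239 in the eccentric and 228 and 233 in the isometric pool, with both exercised pools below both control arrays. Map3k3 (MEKK3, which acts in the ERK5 branch) had differences of -0.27, -0.05 and -0.44 on its 3 probe sets. Map3k11, a mixed-lineage kinase, had 64.2 and 162 in the control against 166 and 219.6 in the eccentric pool, where control A lay below the floor. Map3k4, which the Gadd45 proteins bind, had 387 and 562.5 in the control, 528 and 593 in the eccentric and 602 and 599 in the isometric pool. Map3k7 (TAK1, which serves TGF-beta and interleukin-1 receptors) overlapped in every comparison, at 178 and 221 in the control, 204 and 226 in the eccentric and 272 and 213 in the isometric pool. Map3k8 (Tpl2, which feeds the ERK branch in immune cells) had 225 and 179 in the control against 171 and 170.3 in the eccentric pool on 161768_r_at, and its other probe set was below the floor on all arrays.

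The MAP2Ks, the middle tier, had 0 of 8 measured probe sets past 1.5-fold in any comparison, where 19.5%, 6.58% and 12.4% of all probe sets passed, so that nothing particular to them is read from the count. In the eccentric against the control pool their log2 differences ran from -0.44 to 0.05 with a median of -0.15, and in the isometric against the control pool from -0.30 to 0.15 with a median of -0.07. Map2k3, which activates p38, had 4202 and 3955 in the control, 4203 and 4230.0 in the eccentric and 3766 and 3977 in the isometric pool on 93315_at. Its second bright probe set, 93314_g_at, had 3443 and 2867, then 2886 and 2788, then 3062.5 and 2922.5. The pools lay close together on both probe sets, with differences from control of -0.15 to 0.05. Map2k6, the other p38 activator, had 467 and 666 in the control, 559 and 598 in the eccentric and 623 and 566 in the isometric pool on 102828_at. On 102829_s_at it had 193 and 263, then 171 and 188, then 247 and 253, a log2 difference of -0.33 in the eccentric pool that the first probe set, at 0.05, did not show.

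Map2k4, which activates JNK, had 587 and 563 in the control, 393 and 456 in the eccentric and 577 and 493 in the isometric pool. Both eccentric arrays lay below the other 4, with log2 differences of -0.44 against the control and -0.33 against the isometric pool. Map2k1 and Map2k2 (MEK1 and MEK2) phosphorylate the ERK kinases. Map2k1 had 923 and 700.5 in the control, 749 and 661 in the eccentric and 779.9 and 551 in the isometric pool, with all pools overlapping. Map2k2 had 698 and 770.5, then 709 and 716, then 682 and 531, so the isometric pool lay below the others with a log2 difference of -0.28 from control. Map2k5, the activator of ERK5, had a log2 difference of -0.16 for eccentric and -0.03 for isometric muscle, and its arrays overlapped.

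Of the MAPKs themselves, 6 of 8 genes were measured, with log2 differences from -0.75 to 0.40 in the eccentric against the control pool. Mapk9 (JNK2) had 401 and 326 in the control, 211 and 219 in the eccentric and 238 and 224 in the isometric pool. Both exercised pools were below both control arrays, with log2 differences of -0.75 and -0.65, while they differed from each other by -0.10. With 1 array left out the eccentric difference ran from -0.90 to -0.60, and the isometric one was -0.50 without control A. Mapk8 (JNK1) had 750.4 and 814 in the control, 665 and 558 in the eccentric and 692 and 599 in the isometric pool, which is also lower in both exercised pools without overlap, by -0.36 and -0.28. Its second probe set lay below the floor on all 6 arrays. Mapk10 (JNK3, chiefly a neuronal form) was near the floor and measured only through the control pool, so that no direction was read from it, at 204 and 138.5 in the control against 137 and 88.0 in the eccentric pool and 178.5 and 53.0 in the isometric pool.

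Mapk12, the p38 gamma kinase that is abundant in skeletal muscle, had 3576 and 3142 in the control, 2701 and 2522.5 in the eccentric and 2658.5 and 3392 in the isometric pool. The eccentric arrays lay below both control arrays, with a log2 difference of -0.36, and the isometric arrays overlapped the control. Mapk14 (p38 alpha) had 1985 and 2322 in the control, 1748 and 1768 in the eccentric and 2020.5 and 2119 in the isometric pool, lower in the eccentric than in either other pool by -0.29 and -0.24. Mapk6 (ERK3, an atypical member) was the exception in direction, at 1017 and 1227.5 in the control, 1447 and 1508 in the eccentric and 1358 and 1161 in the isometric pool, a log2 difference of 0.40 in the eccentric pool without overlap. In these bulk samples, fewer cells of a type and less RNA per cell cannot be told apart, and 16 of 18 measured muscle-fibre probe sets also lay below 0 in this comparison, with a median of -0.28.

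Downstream of p38, Mapkapk2 (MK2, which controls the stability of cytokine transcripts) gave different sizes on its probe sets. On 160353_i_at it had 622 and 542 in the control, 343 and 281 in the eccentric and 618 and 224 in the isometric pool. The eccentric pool lay below the control by -0.90, whereas the isometric arrays differed from each other more than the 2 arrays of any pool did for another member above the floor, and the isometric difference of -0.64 was 0.09 without isometric B. On the brighter 95721_at it had 4444 and 3803, then 3344 and 3635, then 3796 and 4171, with a log2 difference of only -0.24 in the eccentric pool. Mapkapk5, another kinase of this tier, had 1099 and 990.5, then 1038 and 903, then 910.1 and 944, with overlap between eccentric and control.

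Scaffold proteins hold kinases of 1 branch together. Mapk8ip1 (JIP1, the JNK scaffold) had 174.5 and 248 in the control, 313 and 378 in the eccentric and 462 and 299 in the isometric pool on 104170_at. Both exercised pools lay above both control arrays, by 0.73 (1.65-fold) and 0.84 (1.79-fold). Without control A the eccentric difference was 0.47, and without isometric A the isometric one was 0.53, both under 1.5-fold. Its second probe set, 161619_f_at, was above the floor only on control A, at 123. Mapk8ip3 (JIP3) and Mapkbp1, which also bind JNK, had log2 differences of 0.10 and 0.50 in the eccentric pool, and their arrays overlapped those of the control. For Mapkbp1 the control arrays themselves were at 142 and 274.5.

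**Figure D3:**
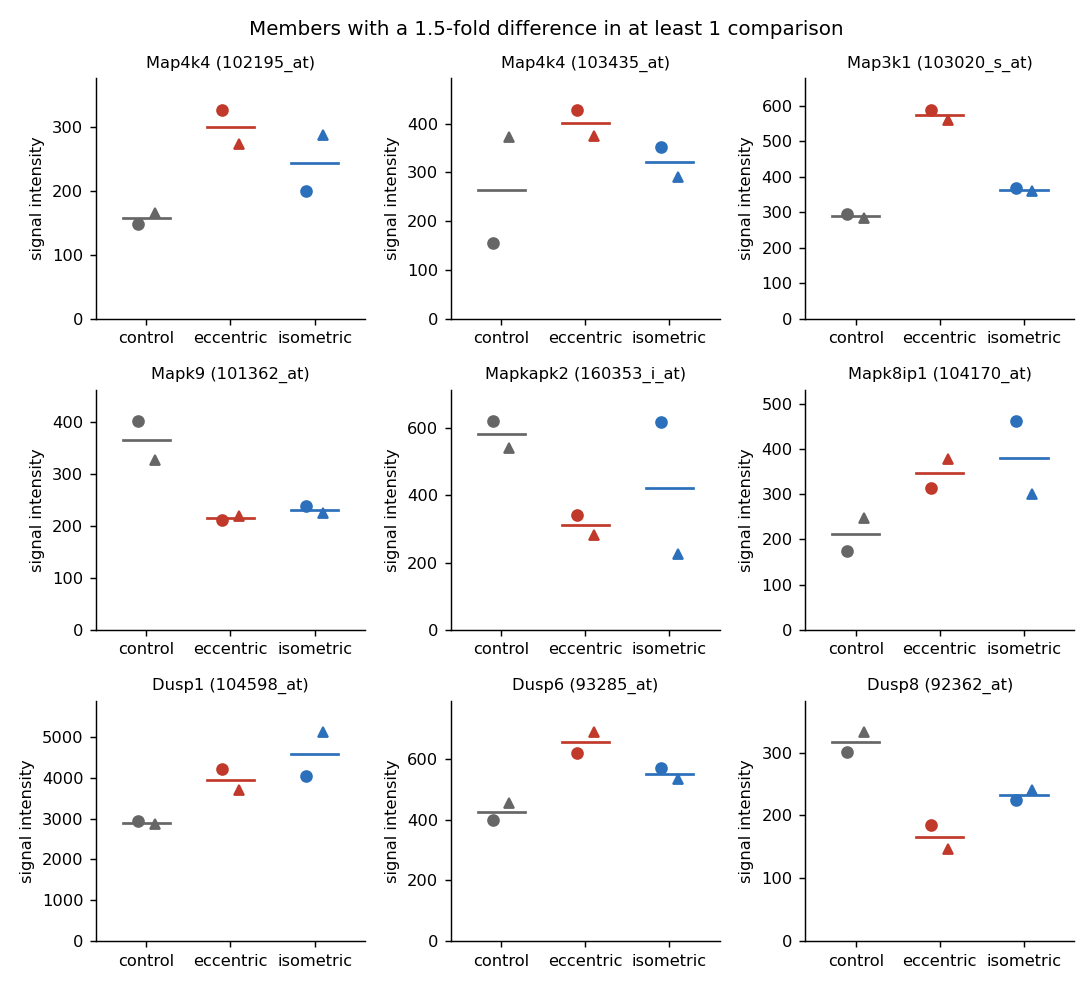
Signal intensity (vertical axis, starting at 0) of the 9 member probe sets that passed the 1.5-fold rule in at least 1 comparison, for the control, eccentric and isometric pools (horizontal axis). Circles are array A, triangles array B and lines their mean. Map3k1, Dusp6, Dusp8 and Mapk9 each separate all 3 pools, although the exercised pools of Mapk9 lie close together. Mapkapk2 has isometric arrays at 618 and 224.

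The phosphatases differed in direction from one another. The 6 measured probe sets of MAP kinase phosphatases had log2 differences from -0.95 to 0.62 in the eccentric against the control pool. The promoters of the 3 that passed the 1.5-fold rule in some comparison are shown because Dusp1 and Dusp6 were higher and Dusp8 lower in exercised muscle. They run from 250 bases before to 50 after the annotated start on the gene's strand, from RefSeq on GRCm38.p6: Dusp1 at chr17:26508423-26508722 (minus strand), Dusp8 at chr7:142095235-142095534 (minus strand) and Dusp6 at chr10:99262981-99263280 (plus strand). Capitals mark each match to the cyclic AMP response element TGACGTCA.
Dusp1: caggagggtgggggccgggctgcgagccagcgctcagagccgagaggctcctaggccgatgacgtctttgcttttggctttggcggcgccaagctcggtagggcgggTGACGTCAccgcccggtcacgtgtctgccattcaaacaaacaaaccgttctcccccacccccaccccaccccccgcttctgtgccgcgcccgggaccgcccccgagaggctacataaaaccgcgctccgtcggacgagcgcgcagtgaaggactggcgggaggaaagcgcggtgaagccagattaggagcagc
Dusp8: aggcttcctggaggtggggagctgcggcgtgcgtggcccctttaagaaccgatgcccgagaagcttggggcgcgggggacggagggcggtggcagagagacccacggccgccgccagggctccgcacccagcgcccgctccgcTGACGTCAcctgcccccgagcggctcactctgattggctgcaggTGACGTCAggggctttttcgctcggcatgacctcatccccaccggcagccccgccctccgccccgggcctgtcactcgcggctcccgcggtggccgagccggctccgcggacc
Dusp6: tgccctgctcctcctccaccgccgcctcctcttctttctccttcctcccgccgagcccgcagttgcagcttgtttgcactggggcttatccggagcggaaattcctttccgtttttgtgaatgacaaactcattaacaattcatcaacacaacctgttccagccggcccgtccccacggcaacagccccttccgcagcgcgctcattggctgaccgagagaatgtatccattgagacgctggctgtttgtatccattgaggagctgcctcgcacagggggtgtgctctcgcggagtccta

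The element occurred 143 bases before the start of Dusp1 and 107 and 63 bases before that of Dusp8, and Dusp6 had no match in this window. Promoters matched by gene ID were found for 34 of the 40 member genes, in 44 windows, of which 3 held the element (6.82%), those of Dusp1, Dusp8 and Mapk10, where 1.79% of 32851 windows of the same length did. Searches of both strands for the AP-1 site TGANTCA and for the CArG box of serum response factor found 1 window (Map2k6) and 0 windows of members, against 7.81% and 1.63% of all windows. Dusp1 and Dusp8 carry the same element and had differences from control of opposite sign. Whether the element has any part in these differences was not tested.

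Dusp1 (MKP-1), a nuclear phosphatase of p38, JNK and ERK encoded by an immediate early gene, had 2936 and 2867 in the control, 4226 and 3698.5 in the eccentric and 4039 and 5129.9 in the isometric pool. All 4 exercised arrays lay above both control arrays, by log2 differences of 0.45 (1.36-fold) and 0.65 (1.57-fold), and the exercised pools overlapped each other. Without isometric B the isometric difference was 0.48, under 1.5-fold. Dusp6 (MKP-3), a cytoplasmic phosphatase selective for ERK, had 398 and 456.5 in the control, 621.5 and 689.6 in the eccentric and 571 and 534 in the isometric pool. The 3 pools were separate, with the eccentric pool 1.54-fold and the isometric pool 1.30-fold above the control. The eccentric difference of 0.62 fell under 1.5-fold without control A, at 0.52, and also without eccentric B. A second probe set of Dusp6 was below the floor on all arrays.

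Dusp8 and Dusp16, phosphatases that prefer JNK and p38, lay below the control in both exercised pools. Dusp8 had 301.5 and 333 in the control, 184 and 147 in the eccentric and 224 and 239.9 in the isometric pool on 92362_at. The 3 pools were separate and ordered control, isometric, eccentric, with log2 differences from control of -0.95 and -0.45 and of -0.50 between the exercised pools. The dimmer 161171_at had 211 and 162, then 117 and 126, then 143 and 156, with -0.58 and -0.31 from control. Eccentric A lay below the floor there. That probe set thus entered the eccentric against control comparison only through the control pool, and no eccentric direction was read from it. With 1 array left out, the eccentric difference of 92362_at ran from -1.11 to -0.78. Dusp16 had 371.5 and 391 in the control, 254 and 279.9 in the eccentric and 307 and 251 in the isometric pool on 97740_at, with -0.51 and -0.46 from control, short of 1.5-fold. Dusp2, a nuclear phosphatase of activated leukocytes, had 565.5 and 504 in the control, 612 and 449.9 in the eccentric and 592 and 609 in the isometric pool. The eccentric arrays of Dusp2 overlapped the control.

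The remaining DUSPs are not MAP kinase phosphatases of the classical type. Dusp11, a phosphatase of RNA, was low but above the floor at 152 and 139 in the control, 192 and 224 in the eccentric and 202 and 216 in the isometric pool, and both exercised pools lay above the control by 0.52 and 0.53. Dusp12 had -0.31 for eccentric and -0.17 for isometric muscle, and Dusp19 -0.05 and -0.16, with overlap of arrays for Dusp19 in both comparisons and for Dusp12 in the isometric one.

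Probe sets of the same gene did not always show the same difference. Of 7 genes with more than 1 measured probe set, 5 had the same sign on all of them in the eccentric against the control pool (Dusp8, Map3k1, Map3k3, Map4k4 and Mapkapk2) and 2 did not (Map2k3 and Map2k6). In the isometric against the control pool 6 of 7 had the same sign, with Map3k1 at 0.33 and -0.04 the exception. Of these 7, only Map4k4 had all its measured probe sets past 1.5-fold, in the eccentric against the control pool. The second Dusp8 probe set, at -0.58, entered that comparison only through the control pool, so its sign there adds no support to the first.

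**Figure D4:**
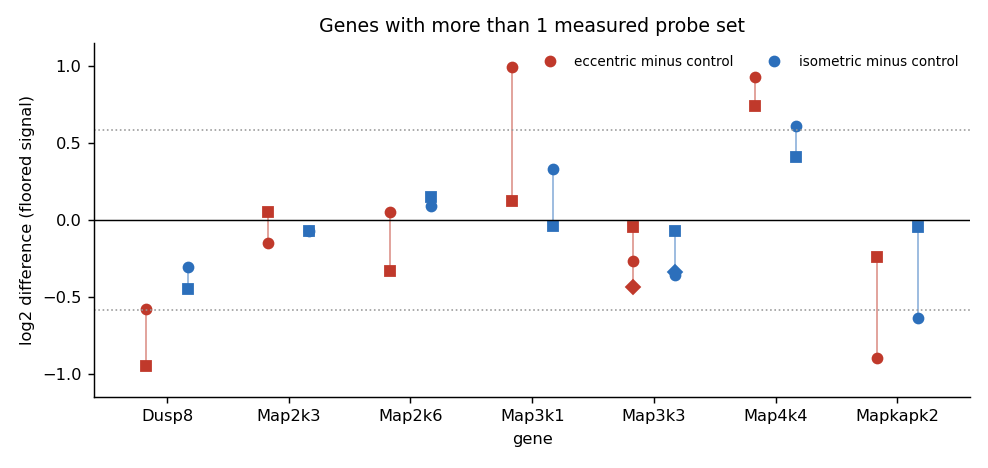
Log2 difference of floored signal (vertical axis) for each measured probe set of the 7 genes with more than 1 (horizontal axis), eccentric minus control in red and isometric minus control in blue, with a marker shape per probe set and a line joining probe sets of a gene. Dotted lines mark 1.5-fold. Both Map4k4 probe sets lie above the upper line in the eccentric comparison, while those of Map3k1 lie at 0.99 and 0.12.

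Other genes of the pathways were taken from lists drawn up with earlier results of these data known. Their 2-fold counts stand beside 6.12% of all measured probe sets in the eccentric and 1.27% in the isometric against the control pool, and a 0 among so few probe sets is close to those shares. Of the Ras, Raf and adaptor genes upstream of ERK, 0 of 11 measured probe sets passed 2-fold in the eccentric against the control pool and 0 of 10 in the isometric one, with medians of 0.22 and 0.11. At 1.5-fold, 1 of the 11 was higher and 1 lower in the eccentric against the control pool, beside 11.9% and 7.56% of all, so nothing particular to them is read from these counts. Nras, a Ras protein, had 0.68 in the eccentric pool on its brighter probe set and 0.41 on the other. Gab1 on 93902_at was lower there, at -0.60, while its other probe set had 0.22. Sos2, at -0.58, was just short of 1.5-fold. Among scaffolds and other kinases 0 of 8 passed in either comparison, with medians of 0.31 and 0.04. Mknk2, a kinase activated by ERK and p38 that phosphorylates the cap-binding protein, had 3288 and 2588 in the control, 4713 and 4222 in the eccentric and 3057 and 2537 in the isometric pool, with the eccentric arrays above all others by 0.61 and 0.68. Among feedback inhibitors other than DUSPs 0 of 9 passed, with medians of -0.41 and -0.27, and their members differed in direction. Spry4, which restrains Ras signalling, had -0.76 and -0.57 in these comparisons, but its isometric arrays, at 359 and 568, overlapped the control, at 802 and 559. Ier3, an early response gene, had 0.62 and 0.05. Errfi1, an inhibitor of the epidermal growth factor receptor, had 0.16 and 0.87 on 1 probe set and -0.13 and 0.54 on the other.

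Among activators of the stress branches 2 of 13 measured probe sets were higher past 2-fold in the eccentric against the control pool and 0 lower, where 6.12% of all passed in either direction, with a median of -0.16. Gadd45a, a stress-induced partner of Map3k4, had 427 and 494 in the control, 950.3 and 916 in the eccentric and 691.5 and 511 in the isometric pool, 2.03-fold higher in the eccentric pool but under 2-fold without eccentric A or control A. Its relatives lay on the other side: Gadd45g had 1566 and 1556, then 871 and 849, then 1738 and 2282, which made it lower in the eccentric than in the isometric pool by -1.21. Both probe sets of Gadd45b had -0.65 and -0.69 in the eccentric against the control pool. Tradd, an adaptor of the tumour necrosis factor receptor, was 2.02-fold higher in the eccentric pool and 3.56-fold higher in the isometric, on a probe set built by relaxed rules, and the former was under 2-fold without eccentric B or control A.

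Transcription factors that MAP kinases phosphorylate or induce were the longest of these lists. In the eccentric against the control pool 4 of 24 measured probe sets were higher past 2-fold and 0 lower, where 6.12% of all passed. In the isometric against the control pool it was 5 of 21 higher and 0 lower, where 1.27% of all passed. The 4 were both measured probe sets of Atf3 and both of Junb, of which 1 Junb probe set (102363_r_at) was at 0.83 without control A. Atf3 104156_r_at had 34.1 and 34.2 in the control, below the floor, and 558.9 and 518.9 in the eccentric pool. It entered that comparison only through the pool where it was high, and its difference of 2.16 depends on the floor. Atf3 104155_f_at, above the floor in both pools, had 514.7 and 452.7 against 2590.5 and 2136. The 5 were both of Junb, 1 of Atf3, Fos and Egr2. Both Junb probe sets carry a letter for relaxed rules or related transcripts, and their arrays differed widely within pools. On 102362_i_at Junb had 226 and 137 in the control, 490 and 671 in the eccentric and 1392 and 479 in the isometric pool. On 102363_r_at it had 216 and 487 in the control, 757.5 and 991 in the eccentric and 1065 and 983.5 in the isometric pool. Egr2, a zinc-finger factor, had 246 and 198 in the control, 248 and 391.5 in the eccentric and 449 and 591 in the isometric pool, 2.33-fold higher in the isometric pool. Fosb had 692 and 685, then 677 and 743, then 1322 and 1179, and its isometric arrays lay above all others by a log2 difference of 0.86 from control, short of 2-fold. Jun overlapped in the eccentric comparison, at -0.03. The list's median log2 difference from control was 0.10 for eccentric and 0.20 for isometric muscle.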

How the data were processed

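The authors deposited 1 linear signal intensity per probe set for each of 6 Affymetrix MGU74Av2 arrays. Software, background correction and probe summary: not given in the sources used here. Trimmed means of 500.3 on all arrays, leaving out the top and bottom 2%, are what scaling to a common target gives, and such scaling hides a change shared by most genes. Of 12488 probe sets, 396 had several genes, 1193 none and 66 were controls, and these were left out. All 61 members had their gene ID in RefSeq's GRCm38.p6 table, which changed 0 symbols, and 2 probe sets shared by Mapkapk5 and Adam1a were not members.

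Arrays were set to a common trimmed mean, values below the 40th percentile were set to it, and differences of mean log2 values were taken. A fold is 2 to the power of that difference. The size rule took the place of a significance test because each group is 1 pool. It was also run on simulated data, with noise taken from the 2 arrays of each pool. That noise holds no variation between animals, so the simulation cannot show how the rule fares against it. The number of arrays, 2 per pool, limits the precision. The members, lists and rules were chosen with earlier results of these data known. All 6 values are given for members past 1.5-fold in a comparison and for preset genes, as the naming rule asks, and other members named with values were chosen after these were seen, as were the list genes past no 2-fold rule. Alternatives tried were scaling, floor, filter, fold, 1 probe set a gene, the array letter as a block and leaving out arrays. Calculations used pandas 2.3.3 and numpy 2.4.6 under Python 3.11.15.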

Additional observations from a re-analysis of the deposited data

How the results depend on the processing

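The count of 0 members past 2-fold held in all 3 comparisons under median scaling, quantile normalization, no filter and, for isometric against control, without control A and isometric B together. It was also 0 at 3-fold, with the filter on all 4 arrays, with 1 probe set a gene and with a floor at the 50th percentile, but these could hardly raise it. A floor at the 20th percentile gave 1 member, Dusp9, between the exercised pools, and a 1.5-fold rule 8, 4 and 1. With 1 array left out the counts were 2 to 3 (eccentric against control), 0 to 2 (isometric against control) and 0 (between the exercised pools). These runs loosen the rule for all probe sets too, and their count over all is not given here for eccentric against control.

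At 1.5-fold, the 5 higher members in the eccentric against the control pool were 3 under quantile normalization, which lost Dusp6 and 1 Map4k4 probe set, and 2 to 7 with 1 array left out. The 3 lower ones were 6 with the 20th percentile floor and 3 to 7 with 1 array left out. For isometric against control, the 3 higher were 1 to 6 and the 1 lower 0 to 5 with 1 array left out, 1 (Mapk8ip1) and 0 without control A and isometric B, and the lower count was 2 with the 20th percentile floor. Between the exercised pools the 1 higher and 0 lower became 3 and 1 with that floor, and 1 to 3 and 0 to 1 with 1 array left out. Over all single-gene probe sets, the 2-fold counts of 413, 84 and 157 were 778, 358 and 435 with the 20th percentile floor, 1313, 435 and 826 at 1.5-fold and 86, 10 and 25 at 3-fold. The 84 became 45 with the 50th percentile floor, 55 with the filter on all 4 arrays, 107 to 250 with 1 array left out and 186 without control A and isometric B, and the 157 became 209 to 257 with 1 array left out. The causes were not tested. With the array letter as a replicate block, Mapkapk2 joined Mapk9 for 2 lower in isometric against control, and no other count of members changed. The letters do not pair the arrays in the labels, and the differences of A from B correlated between pools at 0.03, -0.14 and -0.04 over 5642 probe sets. Of the differences of named members, 684 stayed within the spread of arrays, 4 moved beyond it and none past 1.5-fold turned sign.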

Other observations

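Some dim members were high on 1 or 2 single arrays, and these were picked out after their values were seen. Mapk7 (ERK5) had a signal of 233 on eccentric A, while the other 5 arrays had 37.7 to 64.0. Map3k6 had 200.2 on eccentric A and 54.6 to 81.9 elsewhere. Map3k12 (DLK, a kinase of neurons) had 222 on control A and 210.5 on isometric B, against 54.5 to 92.9 on the other 4 arrays. No pool had both arrays over the floor for any of these, so none entered a comparison.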
